A study of Mus musculus with 4 samples.

Results

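The genes described here are 9 transcriptional regulators of the plasma cell: the factors Prdm1, Irf4 and Xbp1, the octamer coactivator Pou2af1 with the octamer-binding factors Pou2f1 and Pou2f2, the Ikaros family factors Ikzf1 and Ikzf3, and Zbtb20. They were taken by symbol from the count tables, which list 22722 genes, and all 9 were found there and had enough counts to be tested. They were measured in MPC11, a mouse plasmacytoma line that makes immunoglobulin. The Ell2-KD group consisted of 2 cultures with the lentiviral hairpin pLKO.1-shELL2-1C7 against Ell2, an elongation factor of RNA polymerase II, and the shGFP group of 2 control cultures with the hairpin pLKO.1-shGFP. All 4 cultures came from the same line, met virus for 18 h, were selected in puromycin for 72 h and expanded for another 72 h. The depletion rests on a single hairpin in a single line. The labels speak of biological replicates but not of separate transductions. Each p-value sets the difference between the groups against the spread between cultures of a group, and that spread may be only technical. Since RNA was taken from bulk cultures, fewer cells that express a gene and less RNA per cell cannot be told apart.

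Plasma cells arise from B cells when Irf4 and Prdm1, which encodes Blimp-1, shut down the B cell programme and turn on antibody secretion. Xbp1 then expands the endoplasmic reticulum (ER) and its folding machinery. The octamer factors Oct-1 (Pou2f1) and Oct-2 (Pou2f2) bind an octamer motif found in immunoglobulin promoters, and OCA-B (Pou2af1) joins them there as a B lineage coactivator. Ikaros (Ikzf1) and Aiolos (Ikzf3) are zinc finger DNA-binding proteins of lymphoid cells, and Zbtb20 is a zinc finger factor that Irf4 induces in plasma cells. Blimp-1 is also known as an activator of Ell2 in mouse plasmablasts.

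The libraries held 13914488 and 3496471 counts in Ell2-KD replicates 1 and 2 and 8323915 and 5088789 in shGFP replicates 1 and 2, so the shallowest library limits the weaker genes. Ell2 had 1238 and 394 counts in the Ell2-KD libraries and 7864 and 5019 in the shGFP libraries, and it fell by 3.25 on the log2 scale (SE 0.23, edgeR adjusted p = 0.00032). Its counts can include an antisense transcript that overlaps its exons. All 15 plasma cell markers looked for had enough counts to be tested, some of them on few counts. The same held for 1 of 19 T and NK cell, 2 of 17 myeloid and 0 of 10 erythroid and megakaryocyte markers. The 19 T and NK cell markers summed to 8.19 and 10.0 CPM (read counts scaled to library size) in the Ell2-KD libraries and to 3.60 and 11.005 in the shGFP libraries. The 17 myeloid markers summed to 10.4 and 38.9 against 13.8 and 12.2 CPM, and the 10 erythroid and megakaryocyte markers stayed between 0.24 and 2.16 CPM, with 3 of them at 0 counts in every library. The 15 fibroblast, epithelial and endothelial markers summed to 872 and 889 against 792 and 911 CPM. Of these Epcam and Pecam1 gave most counts, at 15546 and 10539 over all libraries. The part of these markers in the results below was not tested.

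None of the 9 regulators passed the test for a change between Ell2-KD and shGFP cells. Changes were tested by quasi-likelihood in edgeR, with p-values adjusted by the Benjamini-Hochberg method over the 11027 genes that had enough counts and a threshold of 0.05. This called 0.0453% of all genes, 0.00907% as higher and 0.0363% as lower. The log2 change of Ell2-KD over shGFP was negative for 5 regulators and positive for 4, with a median of -0.05 beside -0.00 over all tested genes. Negative changes made up 50.1% of all tested genes. Both Ell2-KD libraries lay below both shGFP libraries for 4 of the 9, Prdm1, Irf4, Pou2af1 and Ikzf3, and above them for 0 of the 9. Over all tested genes the Ell2-KD libraries lay wholly below for 18.5% and wholly above for 17.4%. Pou2af1 alone had an unadjusted p under 0.05, as did 5.82% of all tested genes, and DESeq2, which called 0.417% of all genes, also called 0 of the 9. With the replicate number as a block, 1 of the 9 passed, Pou2af1, beside 28 of all 11027 genes. The labels do not say that a replicate number marks a shared batch. The regulators were chosen with results of these libraries known, so these counts are descriptions. For Prdm1, Irf4, Ikzf1 and Zbtb20, 4 genes in all, the 95% interval lay inside log2 changes of -1 and 1. For the other 5 it reached past at least 1 of these bounds, and for Xbp1 and Pou2f1 it reached past both.

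**Figure D1:**
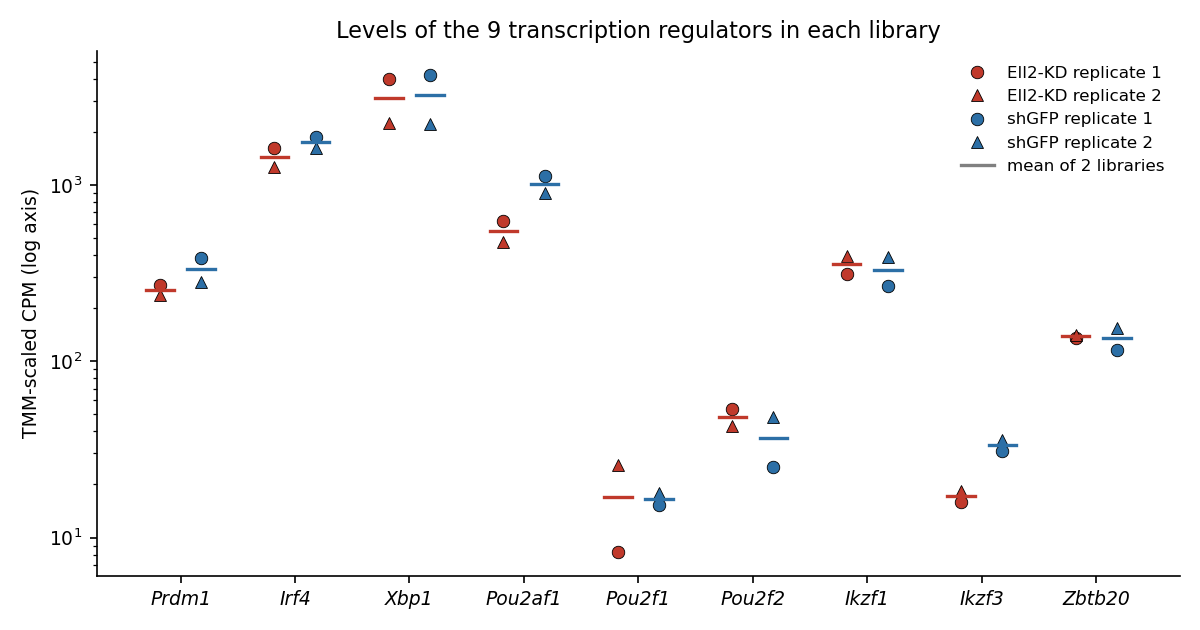
TMM-scaled CPM (log axis) of the 9 regulators, with Ell2-KD in red left of shGFP in blue, circles for replicate 1, triangles for replicate 2 and lines for means of 2 libraries. Pou2af1 and Ikzf3 show the widest gaps between groups, and Xbp1 separates by replicate number rather than by group.

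Levels of different genes were compared as CPM per kb of exon, since a longer transcript gives more reads. On that scale the order of the means over the 4 libraries was Xbp1, Irf4, Pou2af1, Ikzf1, Prdm1, Pou2f2, Zbtb20, Ikzf3 and Pou2f1. Xbp1 stood at 958 ± 374 CPM per kb in Ell2-KD cells and 993 ± 437 in shGFP cells (SD, n = 2 each, as for all values after ± unless marked SE). Irf4 followed at 294 ± 50.2 CPM per kb in Ell2-KD cells and 356 ± 35.8 in shGFP cells. Pou2af1 stood at 215 ± 40.4 against 398 ± 61.1 CPM per kb. By exon length these neighbours changed places: Pou2af1 was the third of the 9 in both Ell2-KD libraries and second in both shGFP libraries, ahead of Irf4. In the shGFP cells the values of Irf4 and Pou2af1 overlapped and did not differ beyond their spread. By coding length Irf4 had the higher mean there, at 1294 against 1207 CPM per kb. Ikzf1, at 61.6 ± 10.2 against 57.2 ± 15.3, and Prdm1, at 45.7 ± 4.34 against 59.7 ± 13.0 CPM per kb, overlapped each other within the shGFP group and did not differ beyond their spread there. On this scale the remaining 4 genes lay far lower. Pou2f2 stood at 5.87 ± 0.91 against 4.45 ± 1.98, Zbtb20 at 4.50 ± 0.10 against 4.40 ± 0.89, Ikzf3 at 1.96 ± 0.21 against 3.80 ± 0.39, and Pou2f1 at 1.03 ± 0.74 against 1.00 ± 0.11 CPM per kb. Zbtb20 and Pou2f2 were within their spread of each other in the shGFP cells. The exons were those of a GENCODE annotation of another build than the files', and Zbtb20 has 30730 bases of annotated exon, so its level per kb depends strongly on which exons the authors counted.

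Irf4, the interferon regulatory factor that starts plasma cell differentiation, had 22762 and 4327 counts in Ell2-KD replicates 1 and 2 and 15694 and 8179 in shGFP replicates 1 and 2. Scaled to depth these were 1615 and 1267 CPM in Ell2-KD cells against 1871 and 1623 CPM in shGFP cells. The Ell2-KD libraries were the lower, by a narrow margin, since Ell2-KD replicate 1 lay just under shGFP replicate 2. The fitted log2 change was -0.28 ± 0.20 (SE, edgeR adjusted p = 0.94), with a 95% interval from -0.71 to 0.16. The gap between groups was close to that between replicates: replicate 1 exceeded replicate 2 by 0.35 in Ell2-KD and by 0.21 in shGFP cells on the log2 scale.

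Prdm1, the repressor that silences B cell genes, had 3834 and 812 counts in the Ell2-KD libraries and 3223 and 1419 in the shGFP libraries. These were 272 and 238 CPM in Ell2-KD cells against 384 and 282 CPM in shGFP cells. Ell2-KD replicate 1 and shGFP replicate 2 almost met, and shGFP replicate 1 stood above the other 3 libraries. This gave a log2 difference of -0.39 ± 0.24 (SE, edgeR adjusted p = 0.91), with a 95% interval from -0.91 to 0.14. It was -0.13 without shGFP replicate 1 and -0.59 without shGFP replicate 2, so its size depended on which control was kept, though it passed in neither fit. With a library left out, the lone library of its group is assumed to vary like the other group. Prdm1 and Irf4 kept a similar proportion to each other. The ratio of Prdm1 to Irf4 per kb was 0.148 and 0.165 in Ell2-KD cells and 0.180 and 0.152 in shGFP cells, and the groups overlapped.

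Xbp1, whose mRNA is spliced by the ER stress sensor Ire1 to encode the active factor, had 55976 and 7688 counts in the Ell2-KD libraries and 35462 and 11205 in the shGFP libraries. These were 3971 and 2251 CPM in Ell2-KD cells against 4229 and 2223 CPM in shGFP cells. Replicate 1 of each group was high and replicate 2 of each group was low, and the groups overlapped fully. On the log2 scale replicate 1 exceeded replicate 2 by 0.82 in Ell2-KD and by 0.93 in shGFP cells, while Ell2-KD differed from shGFP by -0.09 within replicate number 1 and 0.02 within number 2. The fit over all 4 libraries gave -0.05 ± 0.42 (SE, edgeR adjusted p = 0.999), with a wide 95% interval from -1.13 to 1.03. Counting error was 0.42% to 1.14% of the count in each library, far below the difference between replicates. With 1 library left out the value ran from -0.52 (without Ell2-KD replicate 1) to 0.50 (without shGFP replicate 1). Counts per gene do not separate the spliced from the unspliced Xbp1 mRNA.

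**Figure D2:**
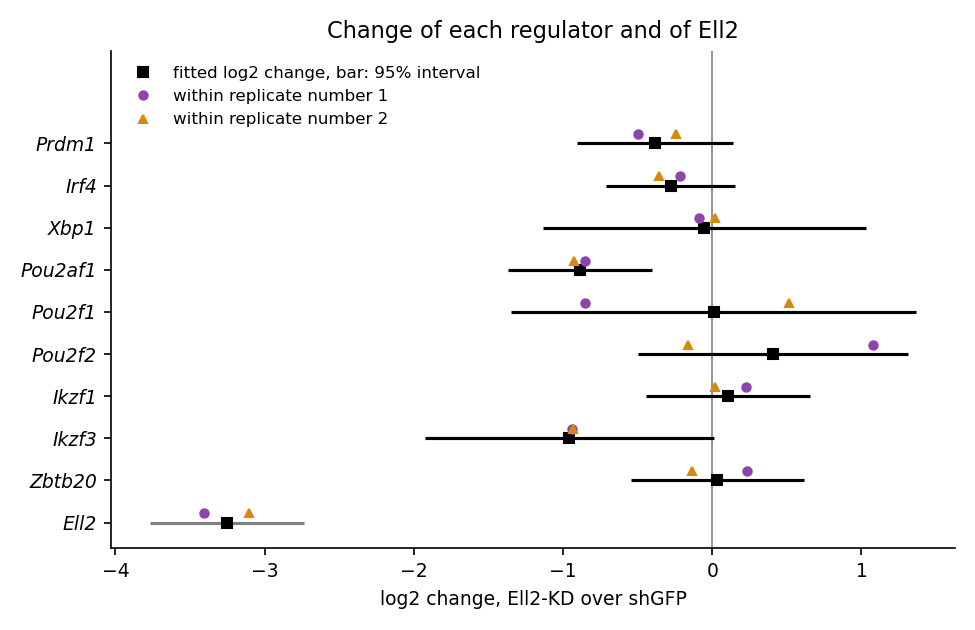
Log2 change of Ell2-KD over shGFP for each regulator and for Ell2, as fitted (squares, bars for 95% intervals) and within replicate number 1 (circles) and 2 (triangles). Pou2af1 and Ikzf3 have nearly the same change within each number, at -0.86 and -0.93 and at -0.94 and -0.94, while Pou2f1 and Pou2f2 change sign between numbers.

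Pou2af1, the octamer coactivator, showed the clearest difference of the 9. It had 8765 and 1626 counts in the Ell2-KD libraries and 9436 and 4561 in the shGFP libraries. These were 622 and 476 CPM in Ell2-KD cells against 1125 and 905 CPM in shGFP cells. Both Ell2-KD libraries lay well below both controls, and the gap between the nearest libraries of the groups was wider than the gap within either group. In the fit Pou2af1 differed by -0.89 ± 0.22 on the log2 scale (SE, edgeR adjusted p = 0.47), with a 95% interval from -1.37 to -0.40 that is not adjusted for the number of genes tested. By its p-value Pou2af1 ranked 45 among all tested genes. Within replicate number 1 the log2 difference was -0.86 and within number 2 it was -0.93. With the replicate number as a block, Pou2af1 passed at -0.89 (edgeR adjusted p = 0.036), in a fit that called 28 of 11027 genes. The labels do not say that a replicate number marks a shared batch, so the fit without a block was kept as the main one. With each library left out in turn the change stayed between -1.09 and -0.71 and did not pass. It passed without Ell2-KD replicate 1, at -1.09 (edgeR adjusted p = 0.0187), only when the genes to test were filtered again on the 3 libraries left, in a fit that called 1.24% of all genes.

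Pou2af1 has been described as a direct target of Xbp1. It and its partner Pou2f2 gave fitted changes of opposite sign, though that of Pou2f2 was no larger than its SE. For these reasons the promoters of Pou2af1 and of Pou2f2 are shown. They are the RefSeq windows of build GRCm38.p6, from 250 bases before to 50 after the annotated start, 5′ to 3′ on the strand of the gene. Pou2af1 lies at chr9:51213440-51213739 on the plus strand and Pou2f2 at chr7:25132411-25132710 on the minus strand. Capitals mark matches to the searched motifs, in Pou2af1 the core TGACGTGG of the element that Xbp1 and Atf6 are known to bind, and in Pou2f2 a match, on the opposite strand, to the ETS-IRF composite site that Irf4 binds with an ETS factor (GGAA, any 2 bases, then GAAA).
Pou2af1: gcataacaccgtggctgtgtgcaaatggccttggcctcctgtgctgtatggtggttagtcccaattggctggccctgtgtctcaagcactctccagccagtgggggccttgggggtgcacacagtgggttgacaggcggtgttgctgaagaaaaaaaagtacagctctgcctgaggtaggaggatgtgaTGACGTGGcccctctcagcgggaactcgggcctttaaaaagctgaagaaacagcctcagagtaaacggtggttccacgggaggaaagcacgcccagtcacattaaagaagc
Pou2f2: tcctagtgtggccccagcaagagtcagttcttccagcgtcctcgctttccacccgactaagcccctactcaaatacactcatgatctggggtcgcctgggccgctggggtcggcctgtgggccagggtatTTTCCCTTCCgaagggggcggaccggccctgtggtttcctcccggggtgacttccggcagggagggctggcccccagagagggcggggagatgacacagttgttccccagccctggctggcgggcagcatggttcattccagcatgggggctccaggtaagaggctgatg
The Xbp1 core in Pou2af1 begins 61 bases before the start. Promoter windows were found for 8 of the 9 genes, 11 windows in all, and each motif was searched on both strands. TGACGTGG was in 1 of the 11 windows and in 0.676% of the 32851 windows of all genes. The ETS-IRF composite site was in 1 of the 11 and in 2.72% of all. The octamer ATGCAAAT was in 0 of the 11 and in 1.74% of all, and the interferon response core (GAAA, any 2 bases, then GAAA) in 0 of the 11 and in 3.44% of all. The box TATAAA was in windows of Irf4 and Pou2f1, 2 of the 11, and in 13.6% of all, and in Irf4 it begins 26 bases before the start. A match in these windows is a description of the letters and no evidence of binding.

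Pou2f2, the B lineage octamer factor, had 757 and 147 counts in the Ell2-KD libraries and 211 and 243 in the shGFP libraries. These were 53.7 and 43.0 CPM in Ell2-KD cells against 25.2 and 48.2 CPM in shGFP cells. Only shGFP replicate 1 stood apart, below the other 3 libraries, and the groups overlapped. Its fitted change was 0.41 ± 0.41 on the log2 scale (SE, edgeR adjusted p = 0.97), with a 95% interval from -0.50 to 1.31. It was 0.02 without shGFP replicate 1 and 0.95 without shGFP replicate 2, and 1.08 within replicate number 1 against -0.16 within number 2.

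Pou2f1, the octamer factor of most cell types, was the weakest of the 9, with 117 and 88 counts in the Ell2-KD libraries and 129 and 90 in the shGFP libraries. These were 8.30 and 25.8 CPM in Ell2-KD cells against 15.4 and 17.9 CPM in shGFP cells. The Ell2-KD libraries lay on either side of both controls. The fit gave a log2 change of 0.01 ± 0.62 (SE; adjusted p in edgeR = 0.999), with a 95% interval from -1.35 to 1.37. It was -0.999 without Ell2-KD replicate 2 and 0.64 without Ell2-KD replicate 1, so its direction rested on single libraries. Counting error was 8.80% to 10.7% of the count in each library, well under the difference between the Ell2-KD replicates. Exons of Pou2f1 overlap those of Cd247, a gene on the other strand, which had 19 counts in all 4 libraries.

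The balance within the octamer group was read as ratios of CPM per kb inside each library, which do not depend on the scaling between libraries. Pou2af1 exceeded the sum of Pou2f1 and Pou2f2 by 34.8 and 27.6 times in Ell2-KD cells and by 111 and 51.3 times in shGFP cells. Both Ell2-KD ratios were below both control ratios, and the Ell2-KD ratio was 0.313 of the shGFP ratio within replicate number 1 and 0.538 within number 2. The control ratios differed from each other by more than the lower of them differed from the Ell2-KD values. The ratio of Pou2f2 to Pou2f1 was 13.0 and 3.36 in Ell2-KD cells and 3.29 and 5.44 in shGFP cells. Its groups overlapped, and Ell2-KD replicate 1 stood apart. With 2 libraries per group a two-sided exact permutation test of a ratio cannot give a p below 0.333, so no test was made.

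**Figure D3:**
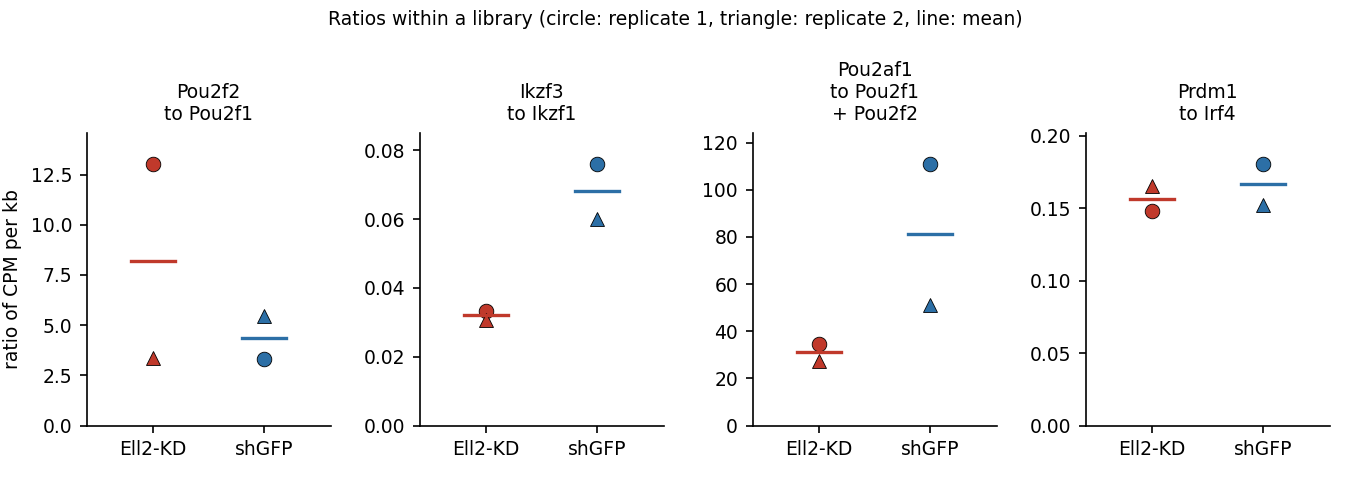
Ratios of CPM per kb between regulators within each library, with Ell2-KD in red left of shGFP in blue, circles for replicate 1, triangles for replicate 2 and lines for means. The ratios of Ikzf3 to Ikzf1 and of Pou2af1 to the octamer factors are lower in both Ell2-KD libraries, and the other ratios overlap.

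Ikzf1, which encodes Ikaros, had 4428 and 1358 counts in the Ell2-KD libraries and 2249 and 1980 in the shGFP libraries. These were 314 and 398 CPM in Ell2-KD cells against 268 and 393 CPM in shGFP cells. Replicate 2 of each group was the higher, the reverse of Xbp1, and the groups overlapped. Ikzf1 had a fitted log2 change of 0.11 ± 0.25 (SE, edgeR adjusted p = 0.999), with a 95% interval from -0.44 to 0.65, and it ran from -0.13 to 0.41 with 1 library left out.

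Ikzf3, which encodes Aiolos, had 224 and 63 counts in the Ell2-KD libraries and 259 and 180 in the shGFP libraries. These were 15.9 and 18.4 CPM in Ell2-KD cells against 30.9 and 35.7 CPM in shGFP cells. The groups did not overlap, and libraries of a group lay close to each other. For Ikzf3 the fit gave -0.96 ± 0.44 on the log2 scale (SE, edgeR adjusted p = 0.85), with a 95% interval from -1.93 to 0.01, and it ran from -1.07 to -0.84 with 1 library left out. Counting error was 6.21% to 12.6% of the count in each library. The change was thus of the size of that of Pou2af1, on far fewer counts. The ratio of Ikzf3 to Ikzf1 per kb was 0.033 and 0.031 in Ell2-KD cells and 0.076 and 0.060 in shGFP cells, lower in both Ell2-KD libraries. The Ell2-KD ratio was 0.439 of the shGFP ratio within replicate number 1 and 0.510 within number 2.

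Zbtb20 had 1922 and 480 counts in the Ell2-KD libraries and 972 and 778 in the shGFP libraries. These were 136 and 141 CPM in Ell2-KD cells against 116 and 154 CPM in shGFP cells, with the Ell2-KD values between the controls. Fitted over all libraries, the log2 change was 0.04 ± 0.26 (SE, edgeR adjusted p = 0.999), with a 95% interval from -0.545 to 0.62. Its exons overlap an antisense gene and a microRNA on its own strand, and those of Pou2f2 overlap another microRNA on its own strand. Without a stated strand setting reads of the antisense gene cannot be told apart. Those of the microRNAs could not be separated by strand in any setting.

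**Figure D4:**
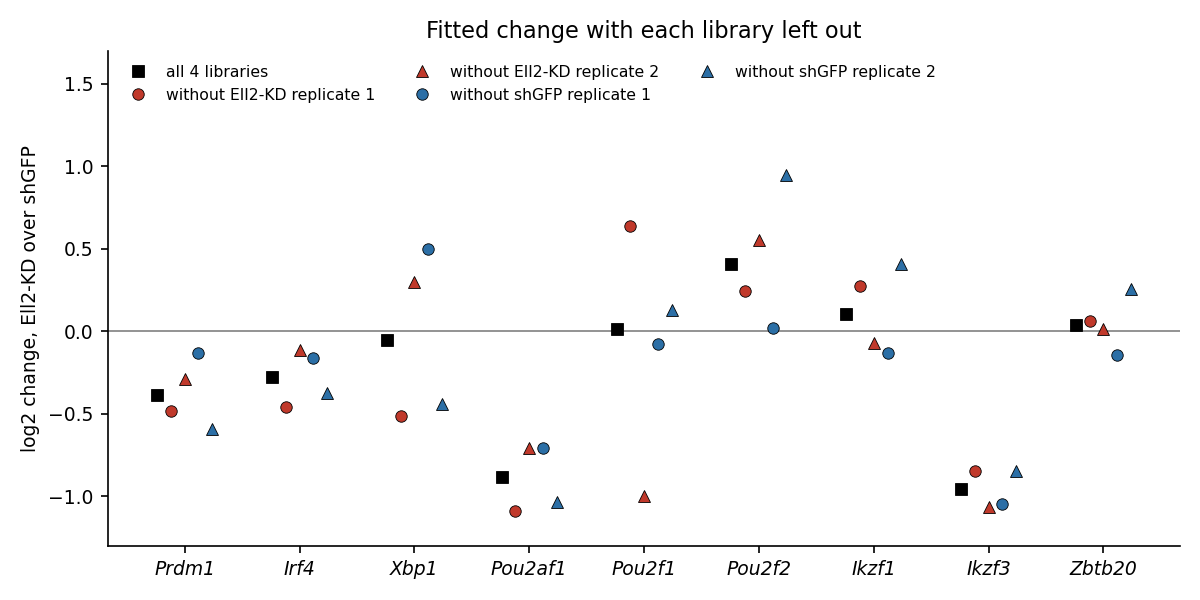
Fitted log2 change of Ell2-KD over shGFP for each regulator with all 4 libraries (squares) and with each library left out (red for an Ell2-KD library, blue for a shGFP library, circles for replicate 1, triangles for replicate 2). Pou2af1 stays between -1.09 and -0.71 and Ikzf3 between -1.07 and -0.84, Prdm1 and Irf4 stay below 0, Pou2f2 stays above 0, and Xbp1, Pou2f1, Ikzf1 and Zbtb20 take both signs.

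Genes that Prdm1 or Irf4 are known to activate, or that are tied to them in plasma cells, were mostly lower. Of 15 tested genes of this list, 2 fell, Ell2 itself, the target of the hairpin, and Trp53inp1, a stress protein abundant in plasma cells. None rose. Over all tested genes 0.0363% fell. In this list 12 changes were negative and 3 positive, where 50.1% of all tested genes were negative, with a median of -0.39 beside -0.00 over all tested genes. The list holds Prdm1, Xbp1 and Zbtb20 themselves, and without these its median was -0.56. Ell2, which the hairpin was meant to lower, stays in these counts and in both medians. The list was chosen with earlier results of these data known, so its counts and medians are descriptions. Trp53inp1 stood at 389 and 322 CPM in Ell2-KD cells against 1327 and 981 CPM in shGFP cells (log2 change -1.70 ± 0.23 SE, edgeR adjusted p = 0.043). The call was lost without Ell2-KD replicate 1 (edgeR adjusted p = 0.052), without Ell2-KD replicate 2 (0.25) and without shGFP replicate 1 (0.27), with the change between -1.90 and -1.45 over all 4 omissions, and also with library totals as the only scaling (0.053) and without the robust setting (0.17). It passed in the same omissions when the genes were filtered again on the 3 libraries left, with edgeR adjusted p from 2.822e-06 to 0.0064, and in DESeq2 (adjusted p = 1.719e-07). Tnfrsf17, which encodes the plasma cell receptor BCMA, had 18 and 1 counts in the Ell2-KD libraries and 159 and 126 in the shGFP libraries and did not pass (edgeR adjusted p = 0.18). The 15 plasma cell markers, which share members with this list, had 14 negative and 1 positive change, a median of -0.39 and 0 calls. They hold Prdm1, Irf4, Xbp1 and Pou2af1 themselves, and without these 4 the median was -0.59. Those with the smallest p apart from Tnfrsf17 were Tnfrsf13b, the receptor TACI, at 59.7 and 46.8 against 159 and 112 CPM, and Fkbp11, an ER prolyl isomerase, at 32.1 and 21.1 against 76.1 and 75.8 CPM.

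Targets of Xbp1 in the secretory pathway were lower in most cases, and 0 of 29 tested genes passed. In Ell2-KD cells 22 were below and 7 above their shGFP level, with a median log2 change of -0.22. Over all tested genes 50.1% of changes were negative. With 1 library left out this median ran from -0.29 (without shGFP replicate 2) to -0.07 (without shGFP replicate 1). Pdia4, a disulfide isomerase, stood at 1335 and 936 CPM in Ell2-KD cells against 1934 and 1420 CPM in shGFP cells. Dnajb11, a co-chaperone of BiP, stood at 430 and 384 against 560 and 523 CPM, and Creld2, an ER stress protein, at 633 and 453 against 972 and 598 CPM. Their log2 changes were -0.56, -0.41 and -0.53, and their edgeR adjusted p ran from 0.81 to 0.87. Of these 3, the ones with the smallest p of the 29, only Creld2 overlapped between groups. Over all tested genes 35.8% did not overlap, and for 18.5% Ell2-KD lay wholly below. All 3 were lower in replicate 2 than in replicate 1 of each group, as Xbp1 was. The order was not particular to Xbp1, since Prdm1, Irf4 and Pou2af1 showed it too. Pou2f1, Ikzf1, Ikzf3 and Zbtb20 had the reverse order in each group. How common this pattern was among the other targets or all tested genes was not counted.

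Genes linked to octamer sites or to Pou2af1 differed in direction. Of 12 such genes, 6 were tested, 2 with a positive and 4 with a negative log2 change, a median of -0.17 and 0 calls. Ms4a1, which encodes the B cell antigen CD20, stood at 836 and 941 CPM in Ell2-KD cells against 378 and 348 CPM in shGFP cells (edgeR adjusted p = 0.086). Kcnn4, a calcium-activated potassium channel, stood at 82.9 and 32.8 against 16.9 and 19.6 CPM (edgeR adjusted p = 0.58). Igj, the joining chain of polymeric immunoglobulin, stood at 9225 and 8458 against 11718 and 9839 CPM (edgeR adjusted p = 0.88). The groups did not overlap for these 3 genes, the ones with the smallest p of the 6, as they did not for 35.8% of all tested genes.

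Genes that Prdm1 represses were mostly too scarce to measure. Of 16 such genes 6 had enough counts to be tested, 2 with a positive and 4 with a negative log2 change, a median of -0.05 and 0 calls. Pax5, the B cell identity factor, had 31 counts in all 4 libraries together, and Ciita, the activator of MHC class II, had 10. Others were abundant: Blnk had 10155 counts and Myc 8294 in all 4 libraries together, each with a log2 change of -0.10. Id3, an inhibitor of E proteins, stood at 6.67 and 9.07 CPM in Ell2-KD cells against 1.43 and 3.17 CPM in shGFP cells, Btk, a B cell receptor kinase, at 68.6 and 35.4 against 91.8 and 64.3 CPM, and the kinase Syk, listed as Sykb, at 104 and 118 against 88.4 and 77.0 CPM. None of the 3 passed, with edgeR adjusted p of 0.91 to 0.92.

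B cell transcription factors that oppose the plasma cell state gave 4 positive and 6 negative log2 changes among 10 tested of 16, with a median of -0.06 and 0 calls. Foxo1, a factor of early B cells, stood at 133 and 152 CPM in Ell2-KD cells against 76.7 and 86.3 CPM in shGFP cells, and its log2 difference was 0.81 ± 0.27 (SE; edgeR, adjusted p = 0.71). Myb stood at 21.8 and 61.8 against 10.9 and 26.6 CPM and overlapped between groups. An antisense gene overlaps exons of each. With 1 library left out the median ran from -0.14 (without Ell2-KD replicate 1) to 0.20 (without Ell2-KD replicate 2).

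**Figure D5:**
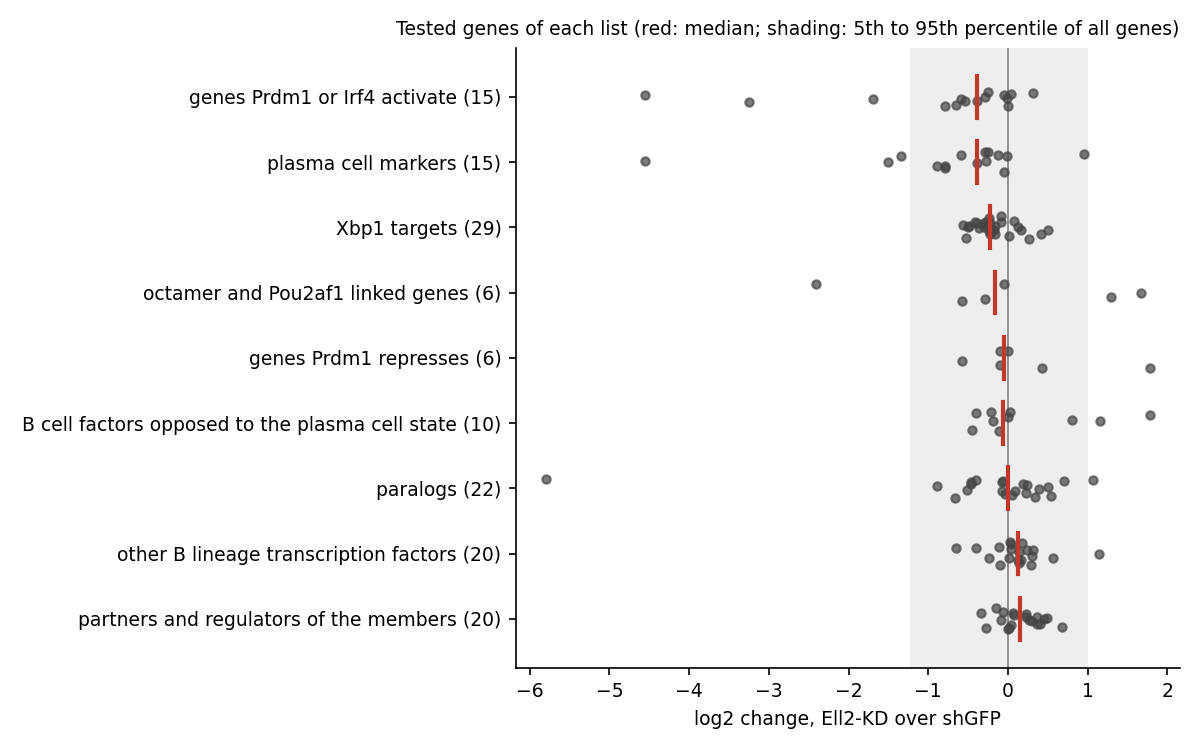
Log2 change of Ell2-KD over shGFP of every tested gene in each list (points), with the list's median in red, the median over all tested genes as a grey line and the range from the 5th to the 95th percentile of all tested genes shaded. Medians lie lowest, at -0.39, for genes Prdm1 or Irf4 activate and for plasma cell markers, which share genes.

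Relatives of the 9 regulators lay as often above as below their control level. Of 24 paralogs of the POU2, IRF, Ikaros, PRDM and ZBTB families, 22 were tested, 11 with a positive and 11 with a negative log2 change, a median of 0.00 and 0 calls. Irf8, a relative of Irf4 in B and myeloid cells, had 3 and 0 counts in the Ell2-KD libraries and 93 and 37 in the shGFP libraries (edgeR adjusted p = 0.45). Irf1, an interferon-induced relative, stood at 111 and 109 CPM in Ell2-KD cells against 50.9 and 84.7 CPM in shGFP cells, and Irf9 at 18.2 and 17.9 against 29.3 and 27.8 CPM. Irf1 and Irf9 overlap exons of other genes, and neither passed. Among Ikaros relatives, Ikzf5 stood at 57.1 and 68.2 against 59.4 and 58.5 CPM. Pou2f3, the third factor of the octamer family, had 2 and 2 counts in the Ell2-KD libraries and 2 and 0 in the shGFP libraries and was not tested.

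Partners and regulators of the 9 proteins, such as the Ikaros ligase receptor Crbn, the Xbp1 splicing enzyme Ern1 and subunits of histone deacetylase complexes, gave 15 positive and 5 negative log2 changes among 20 tested, with a median of 0.15 and 0 calls. Those with the smallest p were Rbbp4, at 476 and 627 CPM in Ell2-KD cells against 285 and 499 CPM in shGFP cells, the corepressor Sin3a, at 189 and 206 against 167 and 139 CPM, and the deacetylase Hdac1, at 19.8 and 25.8 against 13.1 and 15.3 CPM. The median was 0.25 without Ell2-KD replicate 1 and -0.0018 without Ell2-KD replicate 2. Other B lineage transcription factors gave 15 positive and 5 negative changes among 20 tested, with a median of 0.13 and 0 calls, and with 1 library left out the median ran from 0.01 to 0.14. Atf6, an ER stress factor that binds the same element as Xbp1, stood at 288 and 288 CPM in Ell2-KD cells against 432 and 470 CPM in shGFP cells, and its log2 difference was -0.65 ± 0.21 (SE; edgeR, adjusted p = 0.67). Its relative in the stress response Atf4 stood at 276 and 156 against 321 and 249 CPM, and Runx1 at 8.23 and 17.6 against 3.34 and 8.33 CPM. Both overlapped between groups.

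Genes with the pattern most like each regulator were sought over the 4 libraries by the Euclidean distance between log2 CPM values centred on their mean, among 7008 genes with a mean of at least 20 CPM. Nearest to Pou2af1 were Icam2 (distance 0.06) and Fam86 (0.08). Icam2, an adhesion molecule, stood at 23.4 and 16.98 CPM in Ell2-KD cells against 41.9 and 32.7 CPM in shGFP cells. Nearest to Xbp1 were Irgm1 (0.07) and Cyth4 (0.09), to Irf4 4921513D23Rik (0.03) and Epn1 (0.05), and to Prdm1 Arfrp1 (0.01) and 2700049A03Rik (0.02). Nearest to Ikzf1 were Tmem165 (0.01) and Eif2c2 (0.03), to Ikzf3 Sema3f (0.16), to Pou2f2 2010305A19Rik and Pde6d (both 0.11), and to Zbtb20 Dnajb1 and Heatr3 (both 0.05). With 4 libraries and this many candidates these patterns are given as descriptions. Pou2f1 was under the limit of 20 CPM.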

How the data were processed

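Total RNA of 4 MPC11 cultures was prepared for SOLiD sequencing, as the labels' protocols state. The authors deposited whole-number read counts per gene symbol, 1 table per library, per the file headers. The submitters' processing notes name HTSeq 0.5.3, DESeq 1.4.1, SAMtools 0.1.11 and the build mm9. Which aligner, annotation, strand setting and filters were used is not given in the sources used here.

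The test used edgeR 4.0.16 under R 4.3.3. Of 22722 genes, 11027 passed filterByExpr (at least 10 counts, 15 in total), and libraries were scaled by TMM. CPM are relative to the counts of kept genes after TMM scaling; sums over marker lists are relative to all counts without it. The quasi-likelihood test (robust, two-sided, group as the only term) was fitted over all genes, with Benjamini-Hochberg adjustment over all of them. SE is the log2 change divided by the square root of F, and 95% intervals use the total degrees of freedom. Differences within a replicate number are log2 ratios of CPM after adding 0.5. Exon and coding lengths and exon overlaps came from GENCODE M21 (GRCm38), promoter windows from RefSeq (GRCm38.p6). Since that build differs from mm9, coordinates belong to the promoter windows only.

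The 9 genes, the lists and the tests were chosen with earlier results of these data known. Named were the 9, Ell2, the called genes and the 3 others with the smallest p of each list, and the 2 nearest patterns (1 of them for Ikzf3, the other not being reported here). Genes given beyond that (Pax5, Ciita, Blnk, Myc, Ikzf5, Pou2f3, Cd247, Crbn, Ern1, Epcam and Pecam1) were added after their values were seen. The test was tried on simulated counts. Alternatives were scaling, filter, robustness, DESeq2 1.42.0, a replicate block, leaving out each library with the tested genes kept, and coding length. Intervals cover neither isoforms nor splicing, which were not analysed here.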

Additional observations from a re-analysis of the deposited data

How the results depend on the processing

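Of the results recomputed under each alternative, the count of genes called over all genes was the least stable. It was 5, and 2 with library totals as the only scaling, 1 without the robust setting, 22 with no filter, 46 with DESeq2, and 1 to 6 with 1 library left out (1 without Ell2-KD replicate 2 and 1 without shGFP replicate 1). With the replicate number as a block it was 28. The cause of these shifts was not tested. Calls among the 9 regulators went from 0 to 1 with the replicate block, where Pou2af1 passed at -0.89 (edgeR adjusted p = 0.036), and stayed at 0 with each library left out. Leaving out a library and filtering genes again on the other 3, an alternative chosen after seeing the data, gave 142, 82, 14 and 22 genes called without Ell2-KD replicates 1 and 2 and shGFP replicates 1 and 2, and 0 to 1 regulators. The regulator was Pou2af1 without Ell2-KD replicate 1, at -1.09 (edgeR adjusted p = 0.0187), where 1.24% of genes were called. The labels do not say that a replicate number marks a shared batch. Deviations of same-numbered libraries from their group means correlated at 0.31 over genes, and with 2 pairs this does not settle whether numbers pair the samples. Under the block, Xbp1 had a log2 change of -0.04 ± 0.13 (SE).

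Among the regulators, changes of sign concerned those with a change near 0 in the main fit, which were never called. With 1 library left out, Xbp1 and Pou2f1 moved far from 0. Xbp1 was 0.013 with no filter, and -0.52 to 0.50 with 1 library left out. Pou2f1 was -0.0057 with library totals, -0.016 with upper quartile scaling, -0.0026 with no filter, -0.0126 with at least 10 counts in every library, -0.19 with the replicate block, and -0.999 to 0.64 with 1 library left out. In the same fits Ikzf1 ran from -0.13 to 0.41 and Zbtb20 from -0.15 to 0.26. With genes filtered again, Pou2f1 was -0.9905 without Ell2-KD replicate 2 and -0.0816 without shGFP replicate 1, Xbp1 was 0.31 and 0.50, and Ikzf1 was -0.0639 and -0.13 in these fits, and Zbtb20 was -0.15 without shGFP replicate 1.

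Coding length was also used in place of exon length, which rescales levels by construction. By the mean over the 4 libraries 7 of the 9 regulators then kept their rank, and Pou2f2 and Zbtb20 changed places. Within the shGFP cells Irf4 then had a higher mean than Pou2af1, the reverse of the order by exon length. The mean ratio of Ikzf3 to Ikzf1 became 0.0514 in Ell2-KD and 0.109 in shGFP cells, and that of Prdm1 to Irf4 0.0905 and 0.0963. That of Pou2af1 to the octamer factors became 23.6 in Ell2-KD and 58.2 in shGFP cells. That of Pou2f2 to Pou2f1 became 4.42 in Ell2-KD and 2.35 in shGFP cells. Depth limits Pou2f1, Ikzf3 and Pou2f2 most, with 63 to 757 counts per library.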
